A study of Homo sapiens with 9 samples.

Results

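The metallothioneins MT2A, MT1E, MT1F, MT1G, MT1M and MT1X were followed through a bulk RNA-seq experiment on CAL27, an established human line of tongue squamous carcinoma cells. The 6 genes were taken by name from the human metallothionein family, out of 78894 gene identifiers per library. They were chosen with earlier results of these data known. The experiment compared unedited Control cells with 3 CRISPR knockout groups called A2ko, A8ko and C9ko, within a study of an enhancer active in head and neck squamous carcinoma. The labels do not name the sequence removed in each knockout, nor say whether a knockout is 1 clone or a pool. All groups carried no treatment and were grown in DMEM with fetal bovine serum, and polyadenylated RNA was sequenced from strand-marked libraries.

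There were 3 Control samples and 2 samples in each knockout group. The 2 A2ko samples held identical values, and so did the 2 A8ko samples, so each of these groups was counted as 1 library. This left 7 distinct libraries, of which 4 were knockouts, and a replicate check only for Control and C9ko. The values are TPM, a share of all transcripts corrected for transcript length. Read depth cannot be recovered from TPM and is unknown. The number of genes at 1 TPM or more per library was 15556 to 16716, and mitochondrial transcripts took 23.1% to 26.9% of the TPM in Control and 17.9% to 25.2% in the knockouts. All 10 squamous epithelial markers examined reached 1 TPM, in accord with the cell line's label. Their summed level ran from 16814 to 17937 TPM in Control and from 6807 to 10494 TPM in the knockouts. In C9ko 5 of the 10 were called lower and 1 higher, against 7.42% and 22.0% of all tested genes. Fibroblast markers summed to 10.8 to 12.2 TPM in Control and 7.36 to 17.7 TPM in the knockouts, with COL3A1 at 0 throughout. Of these 6 markers 3 were tested, and 1 was called higher and 1 lower in C9ko. Immune markers summed to 14.5 to 18.2 TPM in Control and 16.5 to 52.7 TPM in the knockouts, nearly all from CD14, with MS4A1 at 0 throughout. Endothelial markers summed to 3.51 to 4.55 and 8.63 to 30.1 TPM, nearly all from CDH5. Melanocyte markers summed to 1.60 to 2.07 and 2.22 to 4.38 TPM, with DCT at 0. CD14, CDH5 and the melanocyte marker PMEL were the only genes tested of these lists. Each was called higher in C9ko, by 1.66, 2.51 and 0.55 log2 units (limma adjusted p = 8.38e-05, 8.35e-05 and 0.0125). The part of these shifts in the metallothionein results was not tested.

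Metallothioneins are very small cytosolic proteins that hold zinc and copper, and also cadmium, in clusters formed by their cysteines. They buffer free zinc, take up surplus metal and react with oxidants. Their genes lie side by side on chromosome 16 and are switched on by the zinc-sensing factor MTF1, which binds short metal response elements in their promoters. Heat, oxidants and glucocorticoids can also raise some of them. MT2A is usually the main form in human epithelial cells, and the MT1 genes are near-copies that arose by duplication.

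The coding sequences of the most abundant member and of the member that moved the other way are shown to make plain how alike the transcripts are. They were read from the GENCODE 29 transcripts, which are on GRCh38, and the cysteine codons are in capitals. Every one of the 6 members has 61 codons before the stop, and 20 of them encode cysteine.
MT2A: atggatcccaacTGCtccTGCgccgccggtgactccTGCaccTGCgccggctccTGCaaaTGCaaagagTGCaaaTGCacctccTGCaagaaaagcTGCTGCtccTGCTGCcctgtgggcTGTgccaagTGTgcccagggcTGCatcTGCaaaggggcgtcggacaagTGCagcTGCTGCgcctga
MT1X: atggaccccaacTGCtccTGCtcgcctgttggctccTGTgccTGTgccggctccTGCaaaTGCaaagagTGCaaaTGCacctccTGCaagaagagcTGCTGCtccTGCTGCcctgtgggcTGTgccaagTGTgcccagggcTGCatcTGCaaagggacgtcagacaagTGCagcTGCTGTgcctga
These 2 sequences differ at 14 of 186 bases, an identity of 92.5%. Across all pairs of members the identity of the coding sequences ran from 88.7% for MT1F with MT1X to 95.2% for MT2A with MT1G. The transcript sequence outside the coding part was not aligned. Of all stretches of 50 bases in a member's reference transcript, the share also found in another metallothionein gene or pseudogene was 4.89% for MT2A, 5.34% for MT1E, 3.59% for MT1F, 7.05% for MT1M, 15.96% for MT1X and 20.2% for MT1G. No stretch of 100 bases was shared between members. MT1X also overlaps the same-strand transcript AC026461.1, which was listed at 0 in every library. With that transcript counted, 45.1% of the 50-base stretches of MT1X were found in another gene. Of its 100-base stretches, 19.1% were shared with AC026461.1. The read length and the treatment of reads with several matches are not given in the sources used here, so the division of reads between members is uncertain to that extent.

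Promoters were matched in the RefSeq table (GRCh38.p14) for 2 of the 6 members, again MT2A and MT1X. The 250 bases before each RefSeq start site are shown because the metal response elements in them are the family's shared feature. The capitals mark each match to the element's core, TGCACNC or TGCGCNC, on either strand. The first lies at chr16:56608334-56608583 and the second at chr16:56682220-56682469, both on the plus strand.
MT2A promoter: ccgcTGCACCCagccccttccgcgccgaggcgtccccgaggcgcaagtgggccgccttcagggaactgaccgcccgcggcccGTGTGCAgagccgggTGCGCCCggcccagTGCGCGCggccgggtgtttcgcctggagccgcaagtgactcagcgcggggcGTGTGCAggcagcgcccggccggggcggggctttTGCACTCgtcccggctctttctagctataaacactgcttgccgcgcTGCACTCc
MT1X promoter: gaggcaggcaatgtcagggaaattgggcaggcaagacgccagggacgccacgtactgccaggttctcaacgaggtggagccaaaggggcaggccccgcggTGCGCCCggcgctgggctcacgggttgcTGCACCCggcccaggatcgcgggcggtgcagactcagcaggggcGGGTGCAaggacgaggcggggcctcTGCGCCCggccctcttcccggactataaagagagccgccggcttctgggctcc
The MT2A stretch holds 7 cores and the next 50 bases hold 1 more, while the MT1X window of the same 300 bases holds 4. Of 35116 RefSeq promoters of that length, 29.6% held at least 1 core, 0.601% held at least 4 and 0.0199% held at least 8. In the MT1X window 1 core overlaps a GC box, GGGCGG, and no MT2A core overlaps another motif searched. Both promoters hold 2 GC boxes, counting either strand, and 1 TATAAA box. At least 1 GC box was found in 45% of all promoters and a TATAAA box in 11.5%. The AP-1 motif TGANTCA, found in 7.71% of promoters, occurs once in MT2A and not in the MT1X window. The antioxidant response element core TGACNNNGC, found in 13.3% of promoters, occurs once in each, and in MT2A it overlaps the AP-1 match. These matches describe letters only and show no binding.

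In all 4 knockout libraries the summed metallothionein level stood above every Control. The 6 members together made 4014, 4277 and 4394 TPM in Control, a mean of 4228 ± 194.9 TPM (SD, n = 3). They made 5693 TPM in A2ko, 5834 TPM in A8ko and 5472 and 5702 TPM in C9ko. These are 1.35, 1.38, 1.29 and 1.35 times the Control mean. With each library rescaled by the median of its gene ratios, the sums were still above every Control but the factors were lower, at 1.20, 1.30, 1.21 and 1.21. As a share of the TPM of nuclear genes, the sum took 0.522% to 0.585% in Control and 0.686% to 0.761% in the knockouts. The sum depends least on how reads were divided between near-identical members. Here and below, more cells with a transcript and more transcript per cell cannot be told apart in bulk RNA. The rise in the sum was not shared evenly: MT2A was above every Control in all knockouts, MT1X was below every Control in all of them, and MT1E, MT1F and MT1M differed between knockouts.

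**Figure D1:**
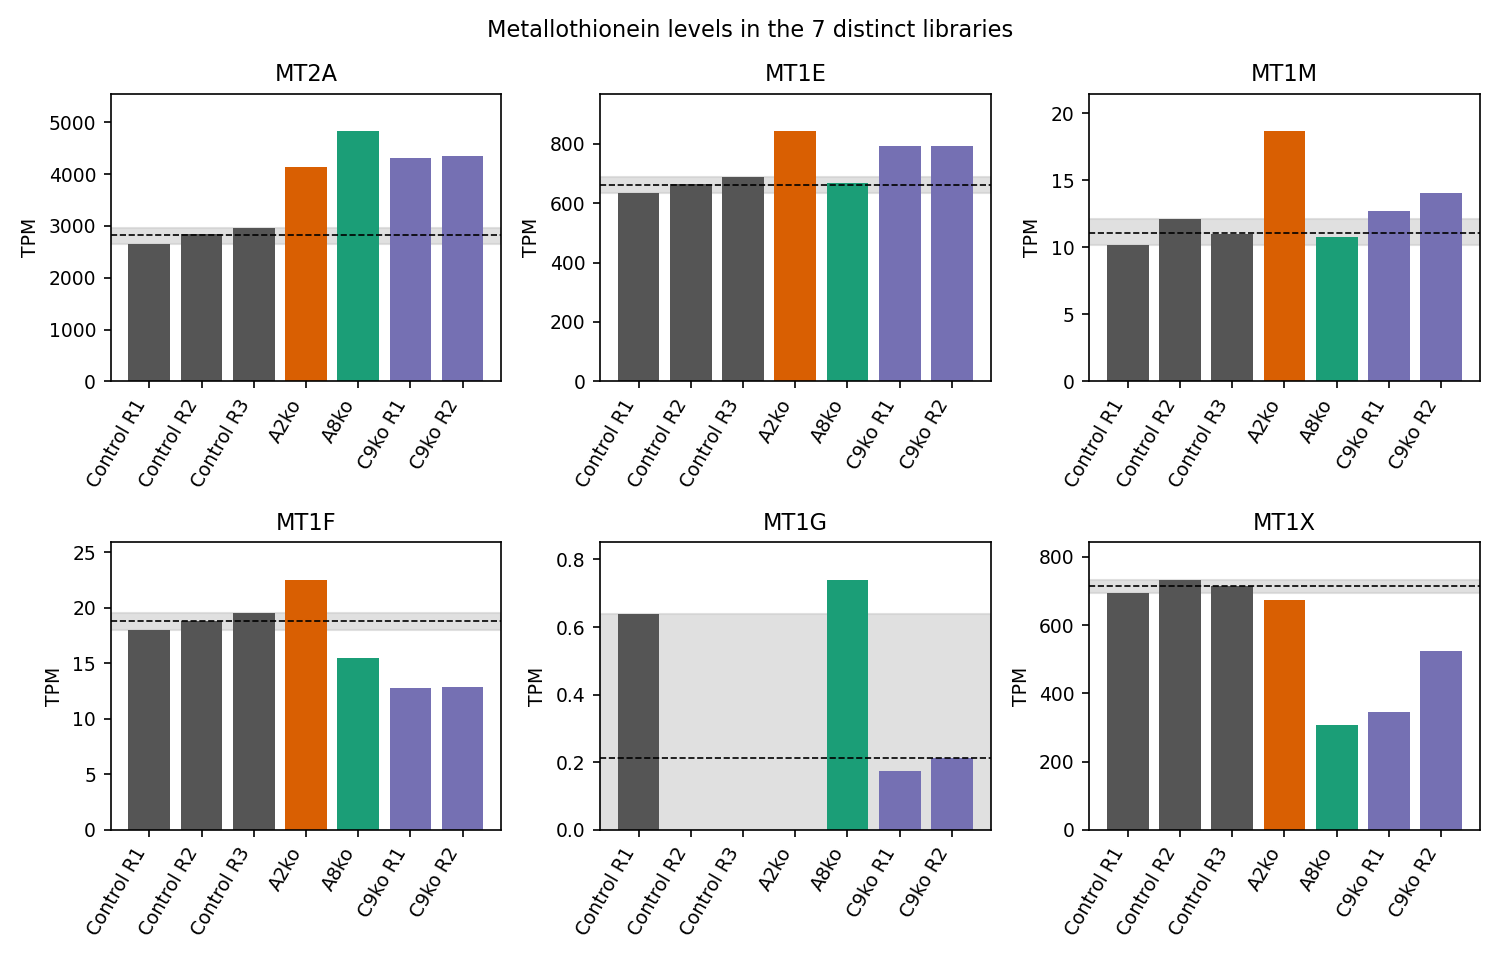
Level of each of the 6 members in TPM (vertical axes, linear, from 0) in the 7 distinct libraries, with the dashed line at the Control mean and the grey band over the Control range. MT2A stood above the band in all 4 knockout libraries and MT1X below it in all 4, while MT1F was above it in A2ko and below it in A8ko and C9ko.

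MT2A, the principal metallothionein of these cells, stood 31st of all identifiers by its mean level in Control. The gene (ENSG00000125148) lies on chromosome 16, from 56608199 to 56609497 on hg38. Its level was 2656, 2849 and 2961 TPM in Control, 4137 TPM in A2ko, 4830 TPM in A8ko and 4310 and 4357 TPM in C9ko. Every knockout library was above every Control, and the 2 C9ko libraries lay close together. The Control mean was 2822 ± 154.2 TPM (SD, n = 3). On the log2(TPM + 1) scale the difference from Control was 0.62 in C9ko (SE 0.087; limma adjusted p = 0.00248). The single A2ko and A8ko libraries differed by 0.55 and 0.78. MT2A stayed called in C9ko under all 14 alternative settings, with differences from 0.50 to 0.66.

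The question of what the 3 knockouts share was put by setting their 3 group means against the 3 Controls. MT2A differed by 0.65 (SE 0.13) in that fit, with a limma adjusted p of 0.0836, so it was not called. It was called in 3 of 14 alternatives: with a mean of at least 5 TPM required (adjusted p = 0.0481), without the A2ko group (adjusted p = 0.0153) and with the knockout average in the fit of all 4 groups (adjusted p = 0.00158). None of the 5 members tested was called there, against 1.03% of the 17100 genes tested, 0.509% higher and 0.520% lower. In limma, 176 genes were called in that comparison and 2740 had an unadjusted p under 0.05. MT2A was among the 17.0% of tested genes with all 4 knockout libraries above all 3 Controls. MT1X was among the 4.61% with all 4 below.

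MT1X was the second most abundant member in Control, 154th of all identifiers, and was below every Control in all 4 knockout libraries. The gene (ENSG00000187193) is at the far end of the cluster from MT2A, from 56682424 to 56684196. It read 694, 733 and 714 TPM in Control, 672 TPM in A2ko, 308 TPM in A8ko and 345 and 525 TPM in C9ko. A2ko sat just under the lowest Control, and the 2 C9ko libraries lay well below it but 41.3% of their own mean apart. The Control mean was 713.9 ± 19.5 TPM (SD, n = 3). In C9ko MT1X fell by 0.74 on the log2 scale (SE 0.16; limma adjusted p = 0.0150). The size rested on which C9ko library was kept: the difference was -0.44 (adjusted p = 0.0200) without the first and -1.04 (adjusted p = 0.00097) without the second. The call ended without the third Control (adjusted p = 0.0505) and with no filter on low values (adjusted p = 0.139). In A8ko the difference was -1.21, outside the Control range and past 1 log2 unit, the fold used where a group has 1 library. It was the only member past that fold in A8ko, where 4.73% of tested genes were past it, 2.05% upward and 2.68% downward. No member was past it in A2ko, where 5.07% of genes were, 3.54% upward and 1.53% downward. Over the 3 knockout groups the difference was -0.68 (limma adjusted p = 0.274). Without the A2ko group it was -0.98 (adjusted p = 0.0101).

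Of the 5 members tested, 4 were called in C9ko against Control, MT2A and MT1E higher and MT1F and MT1X lower. The background in that comparison was high: 29.5% of tested genes were called, 22.0% higher and 7.42% lower. With the median scaling, which removed a general shift of 0.11 between C9ko and Control on the log2 scale, the shares were 15.8% higher and 12.3% lower. Under that scaling MT2A, MT1F and MT1X kept their calls and MT1E did not.

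MT1E, a classic metal-inducible MT1 form, stood next to MT1X in abundance. The gene (ENSG00000169715) lies from 56625475 to 56627112. Its level was 635, 664 and 689 TPM in Control, 843 TPM in A2ko, 669 TPM in A8ko and 791 and 793 TPM in C9ko. A2ko and C9ko were above all Controls, and A8ko was inside the Control range. The Control mean was 662.6 ± 27.0 TPM (SD, n = 3). The C9ko difference was 0.26 on the log2 scale (SE 0.067; limma adjusted p = 0.0292). It was 0.13 (adjusted p = 0.168) after median scaling, and the call also ended without any of Control 1, Control 2 or either C9ko library (adjusted p from 0.0631 to 0.125). The A8ko difference of 0.02 turned to -0.07 after that scaling.

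The remaining MT1 genes were expressed at a far lower level. MT1F (ENSG00000198417; 56657694 to 56660698) read 18.0, 18.8 and 19.6 TPM in Control, 22.6 TPM in A2ko, 15.5 TPM in A8ko and 12.7 and 12.8 TPM in C9ko. A2ko was above all 3 Controls and the other 3 knockout libraries were below them. Its C9ko difference was -0.52 on the log2 scale (SE 0.071; limma adjusted p = 0.00218) and was called under all 14 alternatives, from -0.64 to -0.49. Over the 3 knockout groups it was -0.18 (limma adjusted p = 0.688).

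MT1M (ENSG00000205364; 56632233 to 56633986) read 10.2, 12.1 and 11.0 TPM in Control, 18.7 TPM in A2ko, 10.7 TPM in A8ko and 12.7 and 14.0 TPM in C9ko. A2ko stood apart from all other libraries, A8ko lay inside the Control range, and C9ko lay only just above it. The C9ko difference was 0.25 (SE 0.096; limma adjusted p = 0.0948), which was not called. The A2ko difference, 0.71 with no replicate check, was the highest of any member in that knockout.

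MT1G (ENSG00000125144; 56666731 to 56668065, minus strand) was at the edge of detection. It was listed at 0.638 TPM in 1 Control and at 0 in the other 2, at 0 in A2ko, at 0.740 TPM in A8ko and at 0.173 and 0.212 TPM in C9ko. It never reached 1 TPM, so it was left out of the tests.

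Set against the Control range, the knockouts differed in which members lay outside it. The A2ko library had 4 of the 5 tested members above all Controls and 1, MT1X, below, where 50.4% and 26.3% of all tested genes lay above and below. The A8ko library had 1 above, MT2A, and 2 below, MT1F and MT1X, where 46.9% and 26.4% of genes did. Both C9ko libraries had MT2A, MT1E and MT1M above and MT1F and MT1X below, where the shares of genes were 41.1% and 16.4%. After median scaling these sides were the same except for MT1M in the first C9ko library, which then lay inside the Control range.

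The order of the members by TPM was not the same in Control and knockout cells. In Control, MT2A was followed by MT1X, with MT1E slightly below it at a ratio of MT1X to MT1E of 1.09, 1.10 and 1.04. In the knockouts the ratio was 0.797 for A2ko, 0.460 for A8ko and 0.437 and 0.662 for the C9ko libraries, so MT1E stood above MT1X in all 4 libraries. Likewise MT1F was above MT1M in every Control, whereas in C9ko the values of these 2 genes overlapped.

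The make-up of the family's transcripts can be read within each library and does not depend on scaling between libraries. MT2A made up 66.2% to 67.4% of the summed TPM in Control. Its share was 72.7% for A2ko, 82.8% for A8ko and 78.8% and 76.4% for the C9ko libraries, each above all Controls. MT1X made up 17.3%, 17.1% and 16.3% in Control, and it took 11.8% of the A2ko sum, 5.28% of the A8ko sum and 6.31% and 9.21% of the C9ko sums. For each MT2A transcript there were 0.241 to 0.261 MT1X transcripts in Control, against 0.162, 0.0637, 0.0802 and 0.121 in the same order of knockouts. MT1E kept closer to its share, with 15.5% to 15.8% in Control and 14.8%, 11.5%, 14.5% and 13.9% in the knockouts. The 5 MT1 members without MT2A summed to 1358, 1428 and 1434 TPM in Control, 1556 TPM in A2ko, 1004 TPM in A8ko and 1162 and 1345 TPM in C9ko. The MT1 sum was below the Controls in A8ko and C9ko, though only just in the second C9ko library. MT1E was itself higher in C9ko, but the MT1 genes together were not, so the net rise there lay in MT2A. In A2ko MT2A was higher too, and the MT1 sum was above the Controls. After median scaling the A2ko MT1 sum was 1445, inside a Control range of 1396 to 1535, while A8ko and C9ko stayed below.

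**Figure D2:**
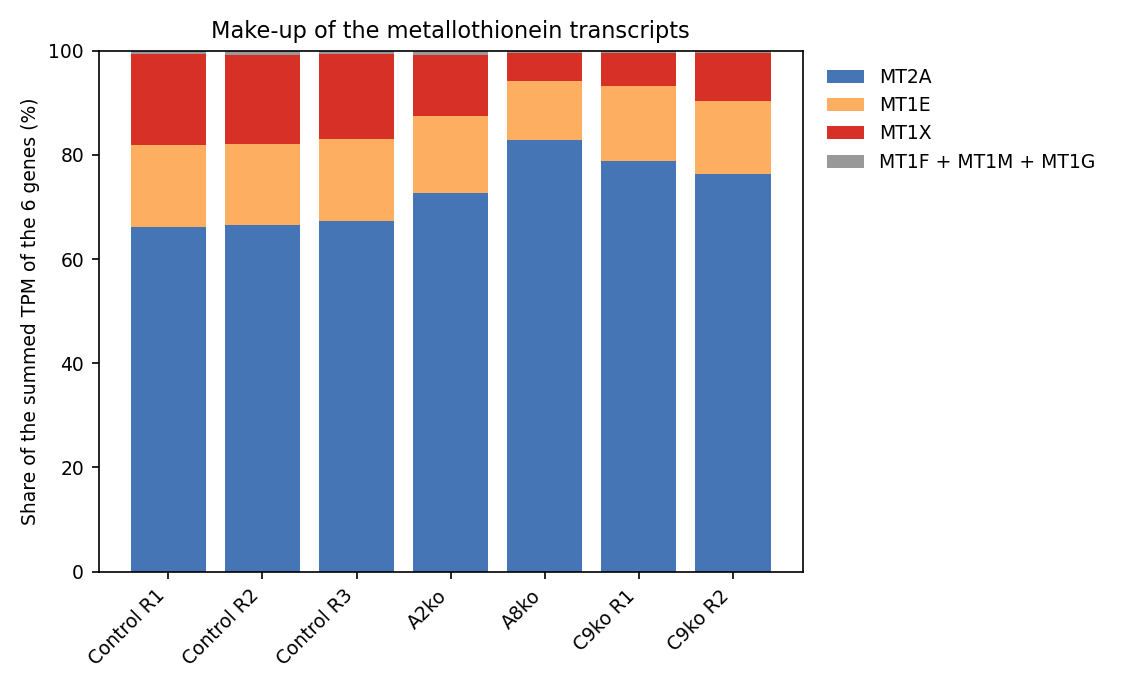
Share of the summed TPM of the 6 members (vertical axis, percent) that each took in the 7 distinct libraries, one stacked bar per library. The MT2A share lay at 66.2% to 67.4% in Control and at 72.7% to 82.8% in the knockouts, and the MT1X share was lower in each knockout library than in any Control.

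The members lie over a stretch that runs from MT2A through MT1E, MT1M and MT1F to MT1X. Read in that order, the C9ko differences were 0.62, 0.26, 0.25, -0.52 and -0.74 on the log2 scale. With the first C9ko library left out they were 0.63, 0.26, 0.32, -0.51 and -0.44, so MT1M and MT1X broke the order. After median scaling, MT1E and MT1M were at 0.13 and 0.14 in C9ko. The A8ko differences were 0.78, 0.02, -0.04, -0.26 and -1.21. In A2ko they were 0.55, 0.35, 0.71, 0.25 and -0.09, so only MT1X was below the Control mean and MT1M broke the order. The tested pseudogene MT1L, which lies between MT2A and MT1E, broke the order in each knockout. It stood at 0.79 in C9ko, 0.98 in A8ko and 0.09 in A2ko. The 3 knockouts were set against the same Control libraries. With 5 tested members in 1 cluster, the order is a description and was given no test.

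**Figure D3:**
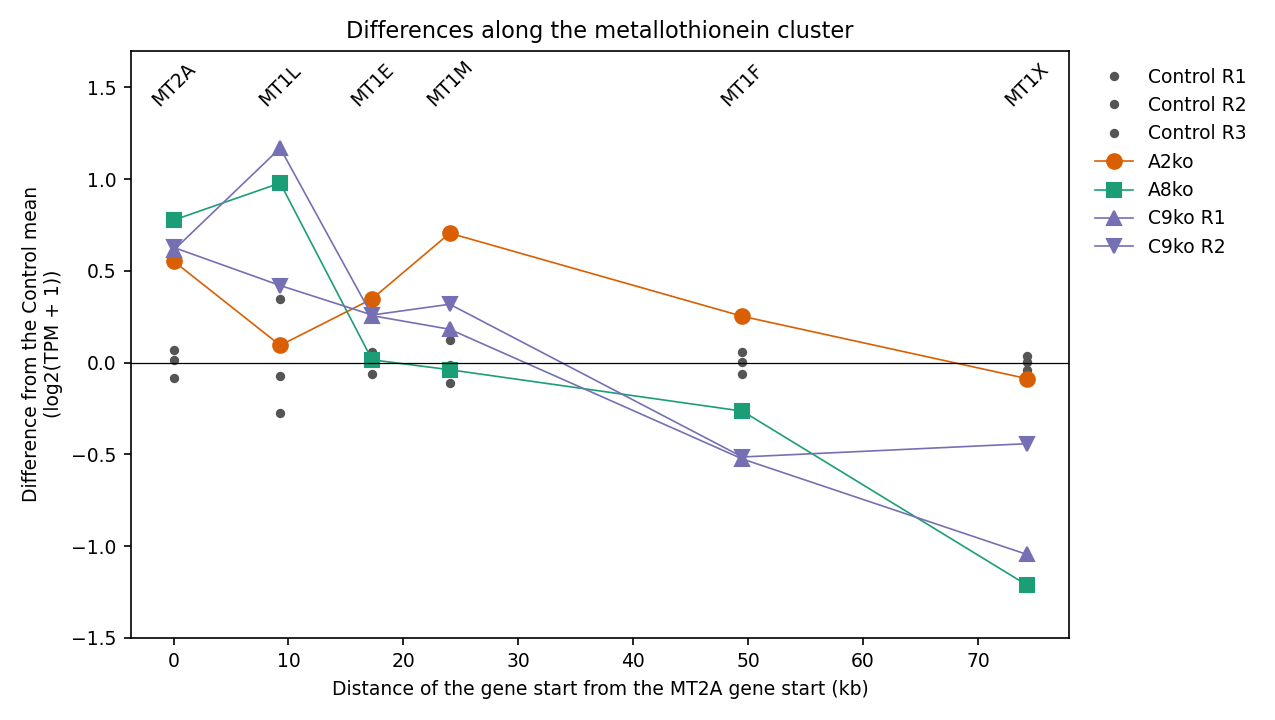
Difference from the Control mean in log2(TPM + 1) (vertical axis) of the 5 tested members and the MT1L pseudogene against the distance of each gene start from that of MT2A in kilobases (horizontal axis), with 1 point per library. The A8ko and C9ko points went from above the Control mean at MT2A to below it at MT1F and MT1X, while in A2ko MT1X alone lay below it.

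The rest of the family was nearly silent. Another 16 identifiers, for 15 symbols, belong to metallothionein genes or pseudogenes, and the 6 members made up at least 99.9% of the family's TPM in every library. Of these 16, only the pseudogene MT1L (ENSG00000260549), which lies between MT2A and MT1E, was tested. It was listed at 1.33, 1.68 and 2.59 TPM in Control, 2.01 TPM in A2ko, 4.56 TPM in A8ko and 5.35 and 2.78 TPM in C9ko. Its C9ko difference of 0.79 was not called (limma adjusted p = 0.0642). MT1H was listed only in A2ko, at 0.373 TPM, and the brain form MT3 only in 1 Control, at 0.0488 TPM. The pseudogenes MT1P1, MT1P3, MT1XP1 and MT2P1 and 1 of 2 identifiers of MT1JP were listed above 0 in some libraries and never reached 1 TPM. The other 8 identifiers, among them MT1A, MT1B and MT4, were listed at 0 throughout. The MT1H promoter window holds 8 metal response element cores, as many as that of MT2A.

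Genes that sense zinc or carry it across membranes were examined next, from a list of 25, of which 19 were tested. In C9ko 12 of the 19 were called higher and 1 lower, with a median difference of 0.32, against 22.0% and 7.42% of all tested genes and a median of 0.11. The count of higher calls was 8 after median scaling, where 15.8% of all genes were called higher. It was 5 without the second C9ko library. None was called over the 3 knockout groups, and the medians in A2ko and A8ko were 0.24 and 0.23.

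MTF1, the zinc sensor that drives metallothionein promoters, read 6.47, 6.62 and 6.03 TPM in Control, 9.04 TPM in A2ko, 7.58 TPM in A8ko and 8.65 and 8.96 TPM in C9ko. All 4 knockout libraries were above the Controls. Its C9ko difference was 0.41 (SE 0.083; limma adjusted p = 0.0111), and the call ended without the second C9ko library (adjusted p = 0.0629). SLC30A1, the zinc exporter of the plasma membrane and a textbook target of MTF1, read 6.69, 5.86 and 6.98 TPM in Control, 10.1 TPM in A2ko, 7.89 TPM in A8ko and 9.63 and 10.1 TPM in C9ko. It too was higher in every knockout library, with a C9ko difference of 0.53 (SE 0.095; limma adjusted p = 0.00677) that was called under all 14 alternatives. Over the 3 knockout groups MTF1 and SLC30A1 differed by 0.36 and 0.45 and were not called (limma adjusted p = 0.226 and 0.196).

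The zinc importer SLC39A2 was the 1 gene of this list called lower. It read 6.99, 8.56 and 7.32 TPM in Control, 5.73 TPM in A2ko, 0.196 TPM in A8ko and 1.56 and 1.30 TPM in C9ko, all 4 below Control. Its difference was -1.82 in C9ko (limma adjusted p = 0.000125) and -2.85 in A8ko, and like MT1X it lay much closer to Control in A2ko. The importer SLC39A8, chosen after its values were seen, moved the other way, from 4.87 to 5.54 TPM in Control to 7.49 TPM in A2ko, 10.1 TPM in A8ko and 9.43 and 12.1 TPM in C9ko. Its C9ko difference was 0.94 (limma adjusted p = 0.00168).

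**Figure D4:**
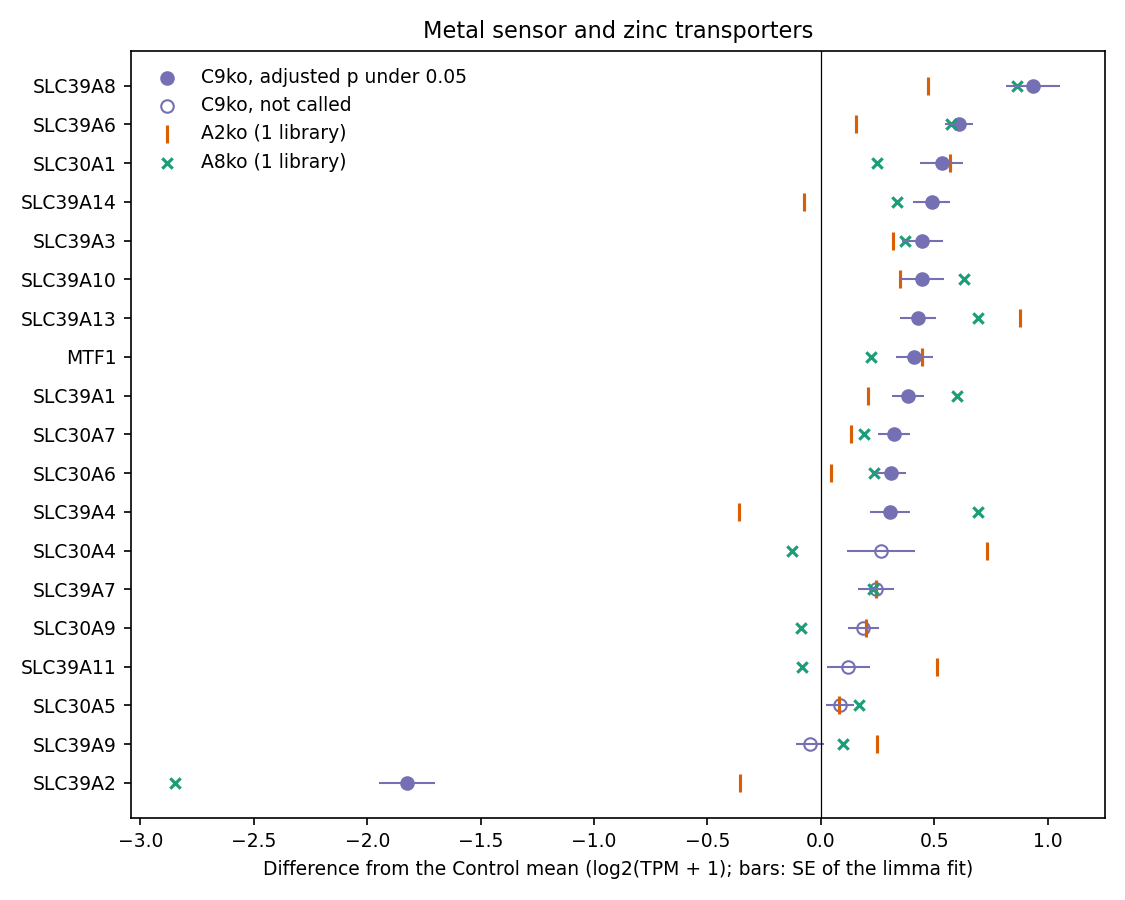
Difference from the Control mean in log2(TPM + 1) (horizontal axis) of the 19 tested genes of the metal sensor and zinc transport list, with C9ko as circles (filled where the limma adjusted p was under 0.05, bars for the SE) and the single A2ko and A8ko libraries as ticks and crosses. Most circles lay right of 0, with MTF1 at 0.41 and SLC30A1 at 0.53, and SLC39A2 stood apart at -1.82 in C9ko and -2.85 in A8ko.

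Of 17 copper handling genes tested, 6 were called higher in C9ko and 1 lower, against the same 22.0% and 7.42% of all genes, with a median of 0.12 that was close to that of all genes. The counts were 4 and 2 after median scaling, and the higher calls were 3 with no filter on low values and 3 without the third Control. The lower call was absent without the first Control or either C9ko library. The copper transporter SLC31A2 read 5.04, 6.72 and 5.95 TPM in Control, 11.5 and 11.6 TPM in A2ko and A8ko, and 32.6 and 9.57 TPM in C9ko. All knockout libraries were above the Controls, but the 2 C9ko libraries were far apart. Its C9ko difference of 1.46 (SE 0.43; limma adjusted p = 0.0442) lost its call in 7 of the alternatives. It was 0.62 without the first C9ko library and 2.29 without the second.

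Further lists cover other signals that can raise metallothioneins. Over all tested genes, 22.0% were called higher and 7.42% lower in C9ko, with a median difference of 0.11. Of 10 genes of the oxidative stress response under NRF2, 3 were called higher and 2 lower in C9ko, with a median of -0.02. In A2ko the median of that list was -0.17, and 2 of its genes were past the fold, 1 each way. Of all tested genes, 3.54% were past it upward there and 1.53% downward. HMOX1, the heme-degrading enzyme, was at 20.8 TPM there against 7.06 to 7.23 TPM in Control. SLC7A11, the cystine importer, was at 1.90 TPM against 5.61 to 5.93 TPM. Of 9 heat shock genes, 1 was called higher and 2 lower in C9ko, with a median of -0.01. In A2ko the median of the heat shock list was -0.44, against 0.12 over all tested genes, with 0 of its genes past the fold. Of 9 glucocorticoid-responsive genes, 3 were called higher and 2 lower in C9ko, with a median of 0.14. In A2ko the median of that list was 0.05, and 2 of its genes were past the fold, both lower. TSC22D3, the glucocorticoid-induced leucine zipper, was 70.9, 66.7 and 67.6 TPM in Control, 31.1 TPM in A2ko, 24.3 TPM in A8ko and 22.8 and 26.8 TPM in C9ko. It fell by 1.43 on the log2 scale in C9ko (limma adjusted p = 7.06e-05), and it was also called over the 3 knockout groups (limma adjusted p = 0.00883). That second call ended when any 1 of the Controls was left out. In the same list ANGPTL4, a secreted lipase inhibitor, and CRISPLD2 were higher in C9ko by 1.55 and 1.07 (limma adjusted p = 0.000818 and 0.000504). The list thus held calls both ways in C9ko, and its counts were not tested against the shares over all genes.

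Genes beside the metallothionein cluster on chromosome 16 were examined as well. Of 19 tested, 6 were called higher and 2 lower in C9ko, with a median of 0.07. Over all tested genes the shares were 22.0% and 7.42%, with a median of 0.11. The counts of the neighbours were not tested against these shares. After median scaling 6 were called higher and 5 lower, and the lower calls were 1 without the second or the third Control. The G protein subunit gene GNAO1, which lies on the MT2A side of the cluster, read 11.0, 12.3 and 12.1 TPM in Control, 9.65 TPM in A2ko, 3.97 TPM in A8ko and 3.80 and 4.58 TPM in C9ko. Its differences were -1.31 in C9ko (limma adjusted p = 0.000201) and -1.37 in A8ko. It was thus lower in the knockout libraries while MT2A was higher.

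Outside the family, the genes whose differences from Control were most like those of the summed members were sought among 10963 genes with a mean of at least 5 TPM. Likeness was the root mean square of the gap in log2 difference over the 7 distinct libraries, with a median of 0.309 over all genes compared. The closest was NAGLU, a lysosomal enzyme that degrades heparan sulfate, at 0.0383. IGF2R, the receptor that carries enzymes to lysosomes, followed at 0.0476, then the noncoding LINC01128 at 0.0490, the fatty acid desaturase FADS1 at 0.0542 and ARHGEF10 at 0.0559. NAGLU read 19.6, 19.7 and 21.9 TPM in Control, 28.7 TPM in A2ko, 28.9 TPM in A8ko and 26.1 and 28.1 TPM in C9ko. In all, 19 genes lay within a distance of 2 times that of NAGLU. That cutoff was set from the closest gene, so the count is a description only. The log2(TPM + 1) scale understates changes of low genes such as ARHGEF10, at 4.31 to 4.51 TPM in Control.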

How the data were processed

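Polyadenylated RNA of 9 CAL27 samples was measured by RNA-seq. The authors deposited 1 table of TPM values per sample, on hg38 per the submitters' processing notes; the aligner, quantifier and annotation are not given in the sources used here. Groups were taken from the sample titles. Files with identical values were counted once. The labels do not say that samples of a group came from separate cultures, so p-values measure the spread between these samples, which may be technical.

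TPM was analysed as log2(TPM + 1), which understates changes of low genes. Genes with at least 1 TPM in at least 2 distinct libraries were tested (17100 genes) with limma 3.58.1 in R 4.3.3, using lmFit and eBayes with a trend, two-sided, adjusted by Benjamini-Hochberg over all genes tested and a threshold of 0.05. C9ko was compared with Control in a fit of all 4 groups. The mean of each knockout group was compared with the Controls in a second fit. A2ko and A8ko, with 1 distinct library each, got no test; a gene was past the fold there when outside the Control range and 1 log2 unit or more away from the mean of the Controls. The fits were also run on simulated data with the same change in every knockout and no added spread between knockouts. That run cannot show how the second fit performs where knockouts differ, as they do here. Gene positions are from GENCODE 29, and sequences were handled in Python 3.11.15 with Biopython 1.88.

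The members and lists were chosen with earlier results of these data known. Beside the members, named genes were those of the metal, stress and neighbour lists called in C9ko with a difference of at least 1 log2 unit, at most 4 per list and direction, MTF1, SLC30A1, all metallothionein rows above 0, and the 5 genes most like the summed members. SLC39A8, HMOX1, SLC7A11 and the markers at 0 or dominating a marker sum were named after their values were seen. Alternatives were another pseudocount, filters, 2 scalings, robust shrinkage, all 9 files, a replicate block, leaving out each library or knockout group, and the average of the knockouts taken in the 4-group fit. Leaving out C9ko libraries from the comparison of all knockouts was chosen after seeing the data.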

Additional observations from a re-analysis of the deposited data

Results flagged for a closer look

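MT1F stood on opposite sides of the Controls in different knockouts: the A2ko library was above all 3 Controls, at 22.6 TPM, and the A8ko library and both C9ko libraries were below them, at 12.7 to 15.5 TPM. The log2 distance between the highest and the lowest knockout group was 0.772. The difference between the knockouts was not tested, because A2ko and A8ko had 1 distinct library each. After median scaling the differences from Control were 0.09 in A2ko, -0.35 in A8ko and -0.63 in C9ko.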

How the results depend on the processing

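Depth is unknown and 2 of the 3 knockout groups had 1 library, which limits every comparison. No member's difference in C9ko or over all knockouts changed sign; that of MT1E in A8ko did, from 0.02 to -0.07 after median scaling. Over the 5 tested members and their alternatives in C9ko, 59 of 70 results stayed on their side of the threshold, 10 lost a call (8 for MT1E, 2 for MT1X) and 1 gained one. Of 5038 genes called in C9ko, counts were 8166 with all 9 files and 3301 to 4174 with 1 library left out; members called went from 4 to 2 with no filter on low values and to 3 with any 1 library left out. Of 176 genes called over all knockouts, counts were 23 with no filter, 5 to 165 with 1 library left out, 1993 without A2ko, 67 without C9ko and 4361 with the knockout average in the fit of all groups. Members called there went from 0 to 1 with a mean of at least 5 TPM required, 2 without A2ko and 4 with that average. The fit with that average leaves the spread between knockouts out of its error. The members past the fold stayed at 0 in A2ko and 1 in A8ko.

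Control and C9ko share replicate numbers, but deviations of same-numbered libraries did not go together (r = -0.04 across genes, 2 pairs). With the replicate block 3248 genes and 3 members were called in C9ko, with 1 residual degree of freedom. MTF1 was not called there (adjusted p = 0.0779), 5 zinc genes were called higher, and of the neighbours 3 were called higher and 1 lower. No paired analysis was possible for all knockouts together because group means carry no replicate number, and A2ko and A8ko had no test.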
